A study of Mus musculus with 11 samples.

Results

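The ER stress response was examined through 10 genes in the livers of mice with metabolic dysfunction–associated steatohepatitis (MASH). The genes were chosen by symbol as chaperones of the endoplasmic reticulum (ER) and as factors or targets of the ATF6, XBP1 and ATF4 branches. They were the chaperones *Hspa5*, *Hsp90b1* and *Pdia4*, the ER-associated degradation genes *Herpud1* and *Dnajb9*, the transcription factor *Xbp1*, and *Atf4*, *Ddit3*, *Trib3* and *Atf3* of the ATF4 branch. All 10 were among the 46603 genes of the count table, and all 10 were among the 13880 genes with enough reads to be tested. The question was how these genes differed, branch by branch, between livers given the bile acid analog INT-767 and livers given vehicle.

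All mice were male B6.V-Lep ob/JRj mice, homozygous for the *ob* mutation and so without leptin in every tissue. They were 5 to 6 weeks old when the AMLN diet, which is rich in fat, fructose and cholesterol, was started, and they ate it for 15 weeks before dosing and throughout. For 8 weeks, 4 mice were gavaged once daily with INT-767 (10 mg/kg), an agonist of the bile acid receptors FXR and TGR5, and 7 mice with the carboxymethyl cellulose vehicle. Messenger RNA of the left lateral lobe was sequenced as 1 library per mouse. Both groups carried the mutation, the diet and an earlier liver biopsy, and no lean or chow-fed liver was analysed here, so that the levels have no healthy reference.

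Secreted and membrane proteins fold in the ER, and hepatocytes, which make most plasma proteins, carry a large ER. When unfolded proteins accumulate, 3 sensors respond. ATF6 is cut to release a transcription factor, IRE1 (gene *Ern1*) splices *Xbp1* RNA so that it encodes an active factor, and PERK (gene *Eif2ak3*) slows translation while that of ATF4 rises. ATF6 and XBP1 raise chaperones and the machinery that removes misfolded proteins, while ATF4 raises genes of amino acid supply and, under lasting stress, the proapoptotic factor *Ddit3* (CHOP). The counts are of whole genes, so that the splicing of *Xbp1*, the cutting of ATF6 and the translation of *Atf4* were not measured.

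The recognition sequences of these factors were looked for in the 250 bases before the RefSeq start of each gene (GRCm38.p6), on both strands. All 10 genes had such a window among 32851. The ER stress response element, CCAAT and CCACG with 9 bases of any kind between them, bound by ATF6 with NF-Y, was present in 0.113% of all windows and in those of *Hspa5* and *Hsp90b1*. The related element ERSE-II, ATTGG and CCACG with 1 base between, was in 0.0304% of windows and in that of *Herpud1*. The C/EBP-ATF element TTGCATCA, to which ATF4 can bind with a C/EBP partner, was in 0.791% of windows and in those of *Herpud1* and *Atf3*. Its loose form TGATGNAA, which overlaps it on the other strand, was in 3.45% of windows and in the same pair. The core of the XBP1 element, TGACGTG, was in 1.65% of windows and in that of *Hspa5*, upstream of the stretch shown. CCACG alone, which is also the end of both ER stress response elements, was in 28.3% of windows and in 5 of the 10 genes. The matches are descriptions of letters and not of binding. The stretches that hold the rarer elements are shown 5′ to 3′ on the strand of the gene, with the elements in capitals, since, of the 10, these 4 windows alone hold the ER stress response and C/EBP-ATF elements. *Hspa5* is shown at chr2:34772020-34772048 (plus strand), *Hsp90b1* at chr10:86705528-86705661 (minus strand, 2 elements, the second on the opposite strand), *Herpud1* at chr8:94386312-94386392 (plus strand, the C/EBP-ATF element first and ERSE-II second) and *Atf3* at chr1:191183431-191183448 (minus strand). The gene coordinates given below come from GENCODE. Those of *Hspa5* and *Atf3* reach upstream of the RefSeq start used here, so that the stretches of both genes lie inside them.
Hspa5: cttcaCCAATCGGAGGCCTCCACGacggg
Hsp90b1: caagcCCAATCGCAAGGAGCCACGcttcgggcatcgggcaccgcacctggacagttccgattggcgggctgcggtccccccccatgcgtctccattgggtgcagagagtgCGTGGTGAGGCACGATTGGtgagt
Herpud1: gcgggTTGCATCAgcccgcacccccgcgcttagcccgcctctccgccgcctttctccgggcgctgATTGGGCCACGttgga
Atf3: cgcacTTGCATCAccaag

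Levels are given as CPM, the share of a library's reads that fell on the gene, set to the same total in every library after TMM scaling, which adjusts libraries for their composition. Total counts per mouse ranged from 7381211 to 16022459, and the 10 genes had between 58 (*Ddit3*) and 16289 (*Hspa5*) counts in a mouse. Differences are log2 fold changes of INT-767 over vehicle with their standard error (SE), from edgeR's quasi-likelihood test. An adjusted *p* is that test's *p* after Benjamini-Hochberg adjustment over the 13880 tested genes, and a gene is called higher or lower where it is under 0.05. Beside it stands the *p* of an exact Mann-Whitney test (two-sided) on the ranks of the mice, which cannot go below 0.00606 with 4 against 7 mice. The labels call the mice replicates, and *p* measures the spread between them.

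The libraries were not alike within the groups. The first principal component of all tested genes held 58.7% of the variance, and on it Vehicle 1 (0.35) and Vehicle 7 (0.16) lay on the side of INT-767 2 (0.62) and INT-767 4 (0.77), while the other 5 vehicle livers lay between -0.53 and -0.15. Across genes, the rank correlation of a library's deviation with GC content ran from -0.42 in Vehicle 1 to 0.44 in Vehicle 3. Mitochondrial genes held between 3.89% (Vehicle 5) and 6.63% (Vehicle 1) of the counts with vehicle and between 5.35% (INT-767 3) and 7.80% (INT-767 2) with INT-767. Values without single mice, or with an offset for GC content and length, are therefore given beside some of the genes named here. For lists of the pathway they are given as counts of called genes. Without Vehicle 1 and with the offset, more genes passed the test in all (1906 and 1073 higher, against 700).

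Of the 10 genes, *Hspa5* alone passed the test, and it was higher with INT-767. Among the 13880 tested genes, 5.04% were called higher and 4.68% lower. At an unadjusted *p* under 0.05, 4 of the 10 were higher (*Hspa5*, *Hsp90b1*, *Dnajb9* and *Xbp1*) and 0 lower. Of all 13880 tested genes, 17.4% were higher and 2159 genes were lower at that threshold. The median log2 fold change was 0.35 over the 10 genes and -0.01 over all tested genes. By branch it was 0.49 for the chaperones, 0.57 for the degradation genes, 0.41 for *Xbp1* and -0.18 for the ATF4 branch, where it was 0.14 without Vehicle 3, 0.03 with DESeq2 and -0.49 without INT-767 1. With scaling by library size only, which put the median of all tested genes at -0.22, the 4 medians were 0.29, 0.37, 0.19 and -0.36, and with the offset for GC content and length that of the chaperones was 0.29. In none of the 10 genes did every INT-767 liver lie above every vehicle liver, which was so in 3.87% of tested genes.

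**Figure D1:**
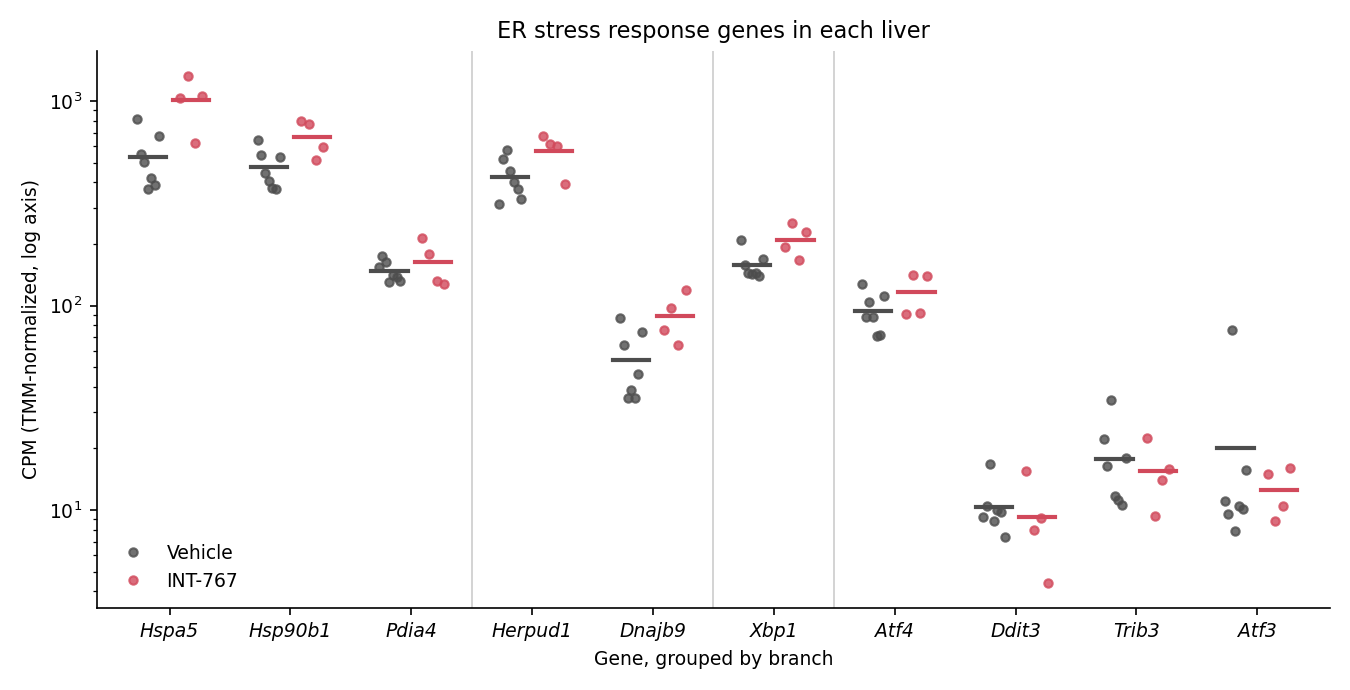
CPM of the 10 ER stress response genes on a log axis, each point 1 mouse, dark for Vehicle (n = 7) and red for INT-767 (n = 4), with a line at the group mean and grey lines between branches. *Hspa5* has 3 of 4 INT-767 points above all vehicle points, and the vehicle point of *Atf3* at 75.8 CPM stands far above the others.

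*Hspa5* encodes BiP, the most abundant chaperone of the ER lumen and the protein that keeps the stress sensors inactive. It lies on chromosome 2 (chr2:34771970-34777547, plus strand, 9 exons in the principal transcript, GRCm38). Its level ran from 373 to 813 CPM with vehicle (median 501.3) and was 1035, 1324, 624 and 1056 CPM in INT-767 1 to 4. INT-767 1, 2 and 4 lay above all vehicle livers, and INT-767 3 lay below Vehicle 1 and Vehicle 7. The mean was 532 ± 163 CPM (SD, n = 7) with vehicle and 1010 ± 289 CPM (SD, n = 4) with INT-767, a fold of 1.90. The log2 fold change was 0.92 (SE 0.25, edgeR adjusted *p* = 0.0373), with a 95% interval from 0.38 to 1.46, and the exact Mann-Whitney *p* was 0.0242. The call was made in 3 of the 11 fits that left out 1 mouse, those without Vehicle 1 (adjusted *p* = 0.0144), Vehicle 7 (0.0388) or INT-767 3 (0.0214). It was lost in the other 8, with adjusted *p* between 0.0515 and 0.158, the last without INT-767 2. It was also lost with scaling by library size only (0.71, adjusted *p* = 0.0664), with upper-quartile factors (adjusted *p* = 0.0505) and at a threshold of 0.01. The livers highest in *Hspa5* in each group, Vehicle 1 and INT-767 2, also had the highest share of mitochondrial counts in their group, and INT-767 3, the lowest treated liver in *Hspa5*, had the lowest. The part of this share in the result was not tested.

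*Hsp90b1* encodes GRP94, the HSP90 of the ER, and lies on chromosome 10 (chr10:86690209-86705509, minus strand, 18 exons). Its level ran from 372 to 647 CPM with vehicle (median 446) and was 799, 769.9, 514 and 595 CPM in the INT-767 livers. The pair highest with INT-767 lay above all vehicle livers, and the other two lay among the vehicle values. INT-767 over vehicle gave a log2 fold change of 0.49 (SE 0.19, adjusted *p* = 0.105, exact Mann-Whitney *p* = 0.0727). Of its exon bases, 10.3% lie under a gene on the opposite strand, and 6.73% of its 75-base windows also occur in other genes, so that its counts may be shared. Without Vehicle 1 it was called higher (adjusted *p* = 0.0389), and with the offset for GC content and length its log2 fold change was 0.29 (adjusted *p* = 0.229).

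*Pdia4* encodes ERp72, a disulfide isomerase of the BiP complex (chr6:47796141-47813430, minus strand, 10 exons). It varied least among the vehicle livers, from 130.4 to 176 CPM (median 141), a coefficient of variation of 11.5%. The INT-767 livers spread over a wider range, at 214, 179, 132 and 127 CPM, with a coefficient of variation of 25.3%. INT-767 1 and 2 lay above all vehicle livers and INT-767 4 below all of them. Its log2 fold change was 0.14 (SE 0.17, adjusted *p* = 0.552), and its sign turned with scaling by library size only (-0.06) and without INT-767 1 (-0.01).

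*Herpud1* encodes a membrane protein of the complex that moves misfolded proteins out of the ER (chr8:94386438-94395377, plus strand, 8 exons). Its level ran from 313 to 575 CPM with vehicle (median 404) and was 678, 618, 603 and 392 CPM with INT-767. INT-767 1, 2 and 3 lay above all vehicle livers, while INT-767 4 lay under the vehicle median. With a log2 fold change of 0.43 (SE 0.20), it did not pass the test (adjusted *p* = 0.157, exact Mann-Whitney *p* = 0.0727). The value ran from 0.35 to 0.57 over the fits without 1 mouse, and from 0.24 to 0.47 over the other alternatives without a replicate block. The order of the vehicle livers differed from that of *Hspa5*. Vehicle 1, the highest of its group in *Hspa5*, was the lowest in *Herpud1*, and Vehicle 3 was the highest.

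*Dnajb9* encodes ERdj4, a cochaperone that BiP uses in degradation and a classical XBP1 target (chr12:44205559-44210326, minus strand, 3 exons). Its level ran from 35.1 to 87.0 CPM with vehicle (median 46.5) and was 75.9, 96.9, 64.3 and 119 CPM with INT-767. INT-767 2 and 4 lay above all vehicle livers, and 5 of the 7 vehicle livers lay below all INT-767 livers. Its log2 fold change of 0.71 (SE 0.28, adjusted *p* = 0.103) was the second largest of the 10, with an exact Mann-Whitney *p* of 0.0424. With the offset for GC content and length it was 0.32 (adjusted *p* = 0.123), and without Vehicle 1 the gene was called higher (adjusted *p* = 0.0327). A processed pseudogene shares 2.55% of its 75-base windows.

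*Xbp1* encodes the factor of the IRE1 branch and is itself raised by ATF6 (chr11:5520659-5525893, plus strand, 5 exons). With vehicle, 6 of the 7 livers lay in a narrow range from 139 to 168 CPM, and Vehicle 1 was at 209 CPM. The INT-767 livers were at 192, 253, 166 and 229 CPM, and INT-767 2 and 4 lay above all vehicle livers. The difference of 0.41 on the log2 scale (SE 0.16) had an adjusted *p* of 0.103 and an exact Mann-Whitney *p* of 0.0424. It was called higher when Vehicle 1 was left out (adjusted *p* = 0.0336). Its level is that of spliced and unspliced transcripts together.

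*Atf4* encodes the factor that PERK signalling raises mainly through translation (chr15:80255184-80257541, plus strand, 3 exons). Its level ran from 70.8 to 127 CPM with vehicle (median 88.2) and was 90.9, 142, 91.8 and 139 CPM with INT-767. INT-767 2 and 4 lay above all vehicle livers, and INT-767 1 and 3 lay near the vehicle median. Its log2 fold change was 0.29 (SE 0.20, adjusted *p* = 0.302, exact Mann-Whitney *p* = 0.164). It ran from 0.17 to 0.40 over the fits without 1 mouse, and from 0.07 to 0.30 over the other alternatives without a replicate block.

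The other 3 genes of the ATF4 branch were low, and none passed the test. *Ddit3*, which encodes CHOP (chr10:127290774-127296288, plus strand, 4 exons), ran from 7.42 to 16.8 CPM with vehicle (median 9.82) and was 15.4, 8.02, 9.15 and 4.42 CPM with INT-767. INT-767 4 was the lowest of all 11 livers and Vehicle 3 the highest. Its log2 fold change was -0.16 (SE 0.30, adjusted *p* = 0.725), with a 95% interval from -0.81 to 0.50, and 4.73% of its exon bases lie under a gene on the opposite strand.

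*Trib3*, which encodes a pseudokinase that ATF4 and CHOP raise and that restrains insulin signalling (chr2:152337422-152344032, minus strand, 4 exons), ran from 10.6 to 34.5 CPM with vehicle (median 16.5). It was 22.5, 9.40, 14.1 and 15.8 CPM with INT-767, all within or below the vehicle values. Its log2 fold change was -0.19 (SE 0.34, adjusted *p* = 0.695).

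*Atf3*, a stress-induced repressor of many promoters (chr1:191170296-191218039, minus strand, 4 exons), ran from 7.86 to 75.8 CPM with vehicle (median 10.47) and was 15.1, 8.84, 10.4 and 16.04 CPM with INT-767. Vehicle 3 alone stood apart, and the next vehicle liver was at 15.7 CPM. The log2 fold change was -0.66 (SE 0.61, adjusted *p* = 0.447) with Vehicle 3 and 0.23 without it. Vehicle 3 was also the highest vehicle liver in *Ddit3*, *Trib3* and *Herpud1*. In that liver the 18 immediate early genes of a fixed list, which respond within minutes to many stimuli, summed to 1620 CPM, against 410.3 to 500.2 CPM in the other vehicle livers and 425 to 552 CPM with INT-767. The part of this in the values of *Atf3* was not tested. For *Ddit3*, *Trib3* and *Atf3* the sign of the difference turned in at least 1 alternative, so that no direction is given for them.

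**Figure D2:**
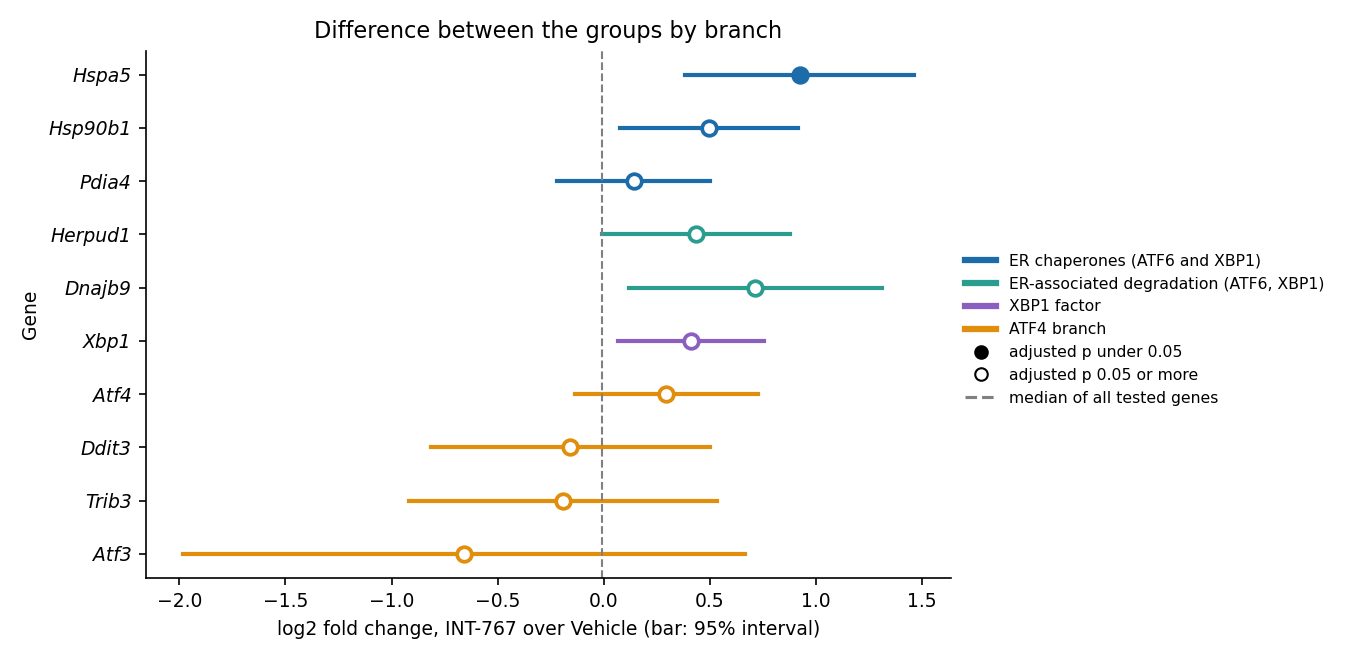
log2 fold change of INT-767 over Vehicle for each gene, with bars for the 95% interval, coloured by branch and filled where the adjusted *p* was under 0.05. Only *Hspa5* is filled, the intervals of *Pdia4*, *Herpud1* and the 4 ATF4 branch genes cross 0, and that of *Atf3* is the widest, from -1.98 to 0.67.

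Among the vehicle livers, Vehicle 1 was the highest in 5 genes (*Hspa5*, *Hsp90b1*, *Dnajb9*, *Xbp1* and *Atf4*), Vehicle 3 in 4 (*Herpud1*, *Ddit3*, *Trib3* and *Atf3*) and Vehicle 2 in *Pdia4*. Vehicle 4, 5, 6 and 7 were the highest in none. Among the INT-767 livers, INT-767 1 was the highest in 5 genes and INT-767 2 in 3, and INT-767 3 was the lowest in 4. The genes that were highest differed between the treated livers. They were *Hsp90b1*, *Pdia4*, *Herpud1*, *Ddit3* and *Trib3* in INT-767 1, *Hspa5*, *Xbp1* and *Atf4* in INT-767 2, and *Dnajb9* and *Atf3* in INT-767 4. INT-767 3 was the lowest of the treated livers in *Hspa5*, *Hsp90b1*, *Dnajb9* and *Xbp1*.

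**Figure D3:**
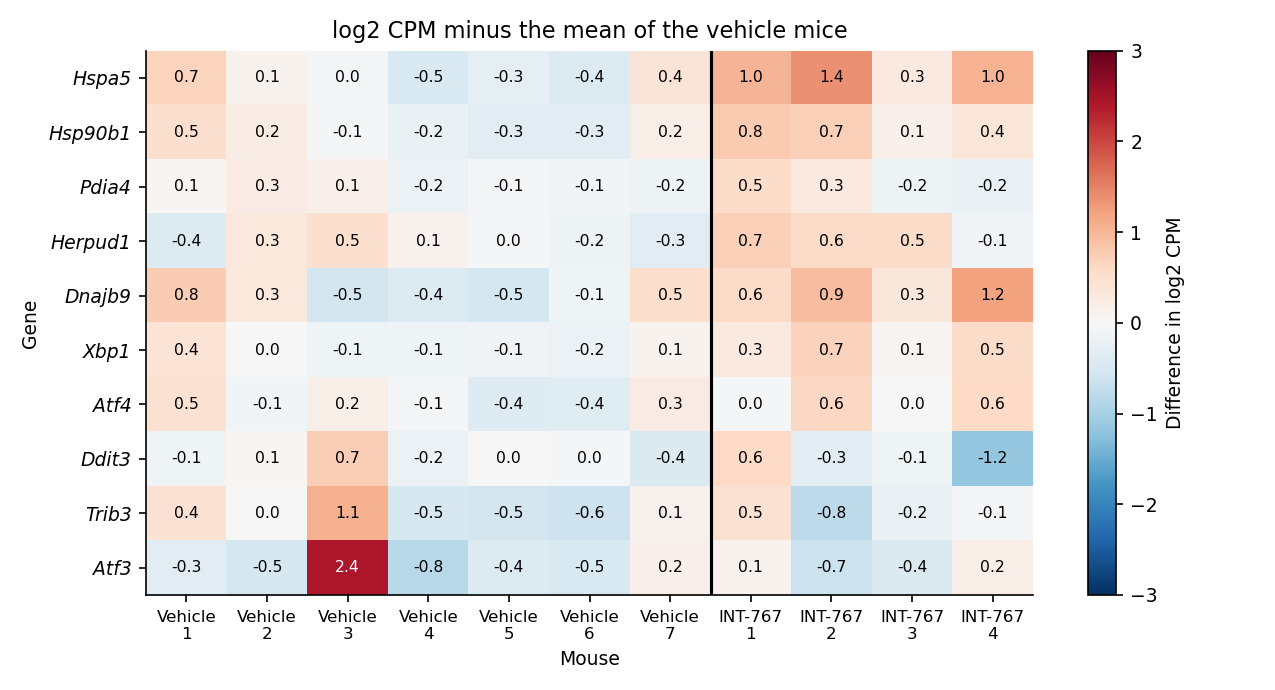
Difference of each liver's log2 CPM from the mean of the vehicle livers, for each gene (rows) and mouse (columns), on a colour scale from -3 to 3. The INT-767 columns are positive in the rows of *Hspa5*, *Hsp90b1*, *Dnajb9* and *Xbp1*, but INT-767 3 only slightly in *Hsp90b1* (0.14) and *Xbp1* (0.08). Vehicle 1, 2 and 7 are positive in the same rows, Vehicle 1 the most, and Vehicle 3 is darkest in *Atf3*.

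How closely genes followed *Hspa5* was measured by Pearson's correlation of log2 CPM, centred on the group means, over the 11 livers. Closest of the tested genes were *Ostc* (0.98), a subunit of the enzyme that attaches glycans to proteins entering the ER, *Chchd4*, *Uspl1*, *Pcgf6* and *Manf* (0.95), an ER protein that binds BiP. Of the other genes examined, *Xbp1* came closest (0.92, rank 37 of 13880), followed by *Hsp90b1* (0.90, rank 102), *Dnajb9* (0.80, rank 746) and *Atf4* (0.79, rank 843). *Pdia4* (0.40), *Trib3* (0.33), *Atf3* (0.11), *Ddit3* (-0.15) and *Herpud1* (-0.31) followed it less. The genes closest to *Ddit3* were *Denr* (0.96), *4933421A08Rik*, *Metap2*, *Gtf2h1* and *Nicn1*, and *Herpud1* (0.81, rank 459) and *Pdia4* (0.73, rank 1133) came closest among the genes examined. These correlations are descriptions over 11 livers that share the differences between libraries given above.

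Per length of exon, in RPKM with vehicle, the order of levels was *Herpud1* (182 ± 41.6, SD, n = 7), *Hspa5* (126 ± 38.5), *Hsp90b1* (118 ± 25.7), *Pdia4* (61.6 ± 7.08), *Xbp1* (48.7 ± 7.58), *Atf4* (40.1 ± 8.78), *Dnajb9* (21.3 ± 8.14), *Atf3* (9.32 ± 11.5), *Trib3* (8.38 ± 4.00) and *Ddit3* (6.06 ± 1.76). *Hsp90b1* and *Pdia4*, and *Atf4* and *Dnajb9*, differed by more than their SDs together, while the other neighbours in this order did not. With INT-767 the means of *Herpud1* (245 ± 53.5, SD, n = 4) and *Hspa5* (239 ± 68.3) lay close together.

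Upstream of the 10 genes, the sensors showed no called difference. *Ern1* (IRE1) had a log2 fold change of -0.14 (adjusted *p* = 0.767), *Eif2ak3* (PERK) of -0.41 (adjusted *p* = 0.283) and *Atf6* of 0.03 (adjusted *p* = 0.907). With the offset for GC content and length they were at 0.26, -0.17 and 0.29, also without a call. Over the fits without 1 mouse *Ern1* ran from -0.48 to 0.05, *Eif2ak3* from -0.60 to -0.25 and *Atf6* from -0.15 to 0.14. *Creb3l3*, a hepatocyte relative of ATF6, was at 290.5 ± 32.9 CPM (SD, n = 7) with vehicle and 428 ± 111 CPM (SD, n = 4) with INT-767, and its log2 fold change of 0.56 missed the threshold (adjusted *p* = 0.0536). With the offset for GC content and length it was called higher (0.62, adjusted *p* = 0.0232), as it was in 3 of the 11 fits that left out 1 mouse. Of the 15 sensors, kinases and proteases listed, 0 were called in either direction by edgeR, and their median was -0.14. At an unadjusted *p* under 0.05, 3 were higher and 1 lower, beside 17.4% higher and 2159 of 13880 lower among all tested genes. The lower one was *Creb3l1*, another relative of ATF6, at 3.30 ± 1.67 CPM (SD, n = 7) with vehicle and 0.98 ± 0.72 CPM (SD, n = 4) with INT-767 (log2 fold change -1.74, adjusted *p* = 0.0716). It was called lower without Vehicle 1 (adjusted *p* = 0.0230), in limma-voom weighted by sample quality (0.0474) and by DESeq2 (0.0175). With the offset the median was 0.11 and 2 were called higher, as were 2 without Vehicle 1 (and 1 lower) and 2 without INT-767 1.

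By edgeR with all mice and TMM scaling, few genes around the ATF6 and XBP1 branches were called. Those called were all higher with INT-767. Of 18 further ER chaperones and cochaperones, 3 were called higher and 0 lower, with a median of 0.29, beside 5.04% and 4.68% of all tested genes. Among the 18, 7 were higher and 1 lower at an unadjusted *p* under 0.05, beside 17.4% higher and 2159 of 13880 lower among all tested genes. Without Vehicle 4, Vehicle 6 or INT-767 2, and with no filter beyond 1 count, 0 were called by edgeR, as with scaling by library size only, where 10 of the 18 were positive and the median was 0.09. The count was 5 without Vehicle 1, with the offset and in limma-voom weighted by sample quality. The 3 called were *Fkbp2* (0.60, adjusted *p* = 0.0225), a prolyl isomerase, *Hyou1* (0.68, adjusted *p* = 0.0305), the exchange factor of BiP, and *Dnajc3* (0.73, adjusted *p* = 0.0370), a cochaperone that also restrains PERK. Of 15 disulfide isomerases and oxidases 2 were called higher, and all 15 log2 fold changes were positive (median 0.30), which held for 9 of them with scaling by library size only. The count of called isomerases and oxidases was 6 without Vehicle 1 and in the weighted limma-voom, 5 by DESeq2, 4 without INT-767 3, 3 with the offset and without INT-767 4, and 1 in 6 of the 11 fits that left out 1 mouse. Of all tested genes, 49.4% were positive. *Ero1lb*, an oxidase that feeds disulfide bonds to the isomerases, was at 24.8 ± 1.63 CPM (SD, n = 7) with vehicle and at 63.7 ± 30.8 CPM (SD, n = 4) after treatment (log2 fold change 1.36, SE 0.24, adjusted *p* = 0.00722). *Pdia5*, an isomerase, had 0.56 (adjusted *p* = 0.0357). In both, and in *Fkbp2*, every INT-767 liver lay above every vehicle liver, which was so in 3.87% of tested genes.

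Of the 24 tested genes of translocation and secretion that XBP1 is known to raise, 1 was called higher and 21 were positive (median 0.27), or 15 with scaling by library size only. The calls were 6 higher without Vehicle 1 and in the weighted limma-voom, and 4 by DESeq2. They were 2 with the offset and without INT-767 1, and 0 without INT-767 2. Without INT-767 4, 1 was called higher and 1 lower. More of all tested genes were also called higher without Vehicle 1, by DESeq2 and in the weighted limma-voom. The single call of 24 in the test with all mice is near the 5.04% of all tested genes. The called gene was *Lman1*, the receptor that carries glycoproteins to the Golgi, at 181 ± 30.7 CPM (SD, n = 7) with vehicle and 322 ± 52.8 CPM (SD, n = 4) with INT-767 (log2 fold change 0.83, adjusted *p* = 0.0115). Of 22 other degradation genes, 0 were called by edgeR, and the median was 0.09. At an unadjusted *p* under 0.05, 6 were higher and 2 lower, beside 17.4% higher and 2159 of 13880 lower among all tested genes. Those with the smallest *p* were *Aup1* (0.44, adjusted *p* = 0.0760, with 23.0% of its exon bases under a gene on the opposite strand) and *Derl2* (0.77, adjusted *p* = 0.0824), a channel subunit. With the offset 2 of the 22 were called higher and 0 lower, *Aup1* among them (adjusted *p* = 0.0380). The calls were 3 higher and 1 lower without Vehicle 1 and by DESeq2, 4 and 2 in the weighted limma-voom, 2 and 0 without INT-767 3, and 0 and 1 without INT-767 1 and with scaling by library size only. Without 1 mouse *Aup1* was called in 1 and *Derl2* in 2 of 11 fits. *Ero1lb* was called in all 11 fits that left out 1 mouse and *Lman1* in all but that without INT-767 2 (adjusted *p* = 0.0531). *Fkbp2* was called in 7 of them, *Hyou1* in 6, *Pdia5* in 5 and *Dnajc3* in 4, and all 4 lost their call without INT-767 2.

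The ATF4 lists had no common direction, and single calls in lists of this size are near the 5.04% higher and 4.68% lower of all tested genes. Of 18 targets tied to stress and its feedback, 1 was called lower and 0 higher, with a median of -0.05. The median was 0.26 without Vehicle 3 and -0.29, with 2 called lower, without INT-767 1, and the calls were 2 higher and 1 lower without Vehicle 1, 2 and 2 by DESeq2, and 1 and 1 with the offset. The called gene was *Tnfrsf10b*, a death receptor that CHOP raises, at 1.76 ± 0.34 CPM (SD, n = 7) with vehicle and 0.70 ± 0.35 CPM (SD, n = 4) with INT-767 (log2 fold change -1.24, adjusted *p* = 0.0340). Of 17 targets of amino acid supply, 1 was called higher and 0 lower, with a median of -0.15 (-0.62 without INT-767 1 and -0.02 without Vehicle 3). Of these, 2 were called lower without INT-767 1, without Vehicle 1 and by DESeq2. The called gene was *Cth*, the enzyme that makes cysteine from cystathionine, at 212 ± 130 CPM (SD, n = 7) with vehicle and 812 ± 406 CPM (SD, n = 4) with INT-767 (log2 fold change 1.94, adjusted *p* = 0.0193). Of 20 cytosolic aminoacyl-tRNA synthetases, 0 were called by edgeR (median -0.06). At an unadjusted *p* under 0.05, 2 were higher, beside 17.4% of all tested genes. The smallest *p* were those of *Dars* (0.95, adjusted *p* = 0.0515) and *Tars* (0.47, adjusted *p* = 0.108). Both were called higher with the offset (0.54 and 0.57, adjusted *p* = 0.0161 and 0.0253), and *Dars* in 4 of the 11 fits without 1 mouse. *Cth* was called in 10 of the 11 fits that left out 1 mouse and *Tnfrsf10b* in 4, and both lost their call without INT-767 2.

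Stress responses outside the ER were read beside these, and as above 5.04% of all tested genes were called higher. Of 14 tested cytosolic heat shock genes, 1 was called higher, the constitutive chaperone *Hspa8* (0.68, adjusted *p* = 0.0401), with a median of 0.15, and 3 were called without INT-767 3 and by DESeq2. Of 10 mitochondrial chaperones and proteases, 1 was called higher, the protease subunit *Clpx* (0.71, adjusted *p* = 0.0496), with a median of 0.28, and 3 were called without Vehicle 1 and by DESeq2. Of 17 tested immediate early genes, 0 were called by edgeR, and the median was -0.34 (0.14 without Vehicle 3). At an unadjusted *p* under 0.05, 1 was higher and 2 were lower, beside 17.4% higher and 2159 of 13880 lower among all tested genes. Those with the smallest *p* were *Ier3* (-2.75, adjusted *p* = 0.0533) and *Ier2* (0.60, adjusted *p* = 0.0643). *Ier3* was at 69.4 CPM in Vehicle 3 and at most 8.68 CPM in the other livers, and without Vehicle 3 its log2 fold change was -1.61 and it was called lower (adjusted *p* = 0.0103), while *Ier2* was called higher (0.70, adjusted *p* = 0.0403). With the offset both were called as well (adjusted *p* = 0.0347 and 0.0455), and without Vehicle 1 the list held 1 called higher and 2 lower. *Hspa8* was called in 4 and *Clpx* in 2 of the 11 fits that left out 1 mouse, and with scaling by library size only both lost their call (adjusted *p* = 0.107 and 0.0854), as did *Pdia5* (0.149). The medians of the heat shock and the degradation lists turned negative with scaling by library size only (-0.06 and -0.11), where the median of all tested genes was -0.22.

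**Figure D4:**
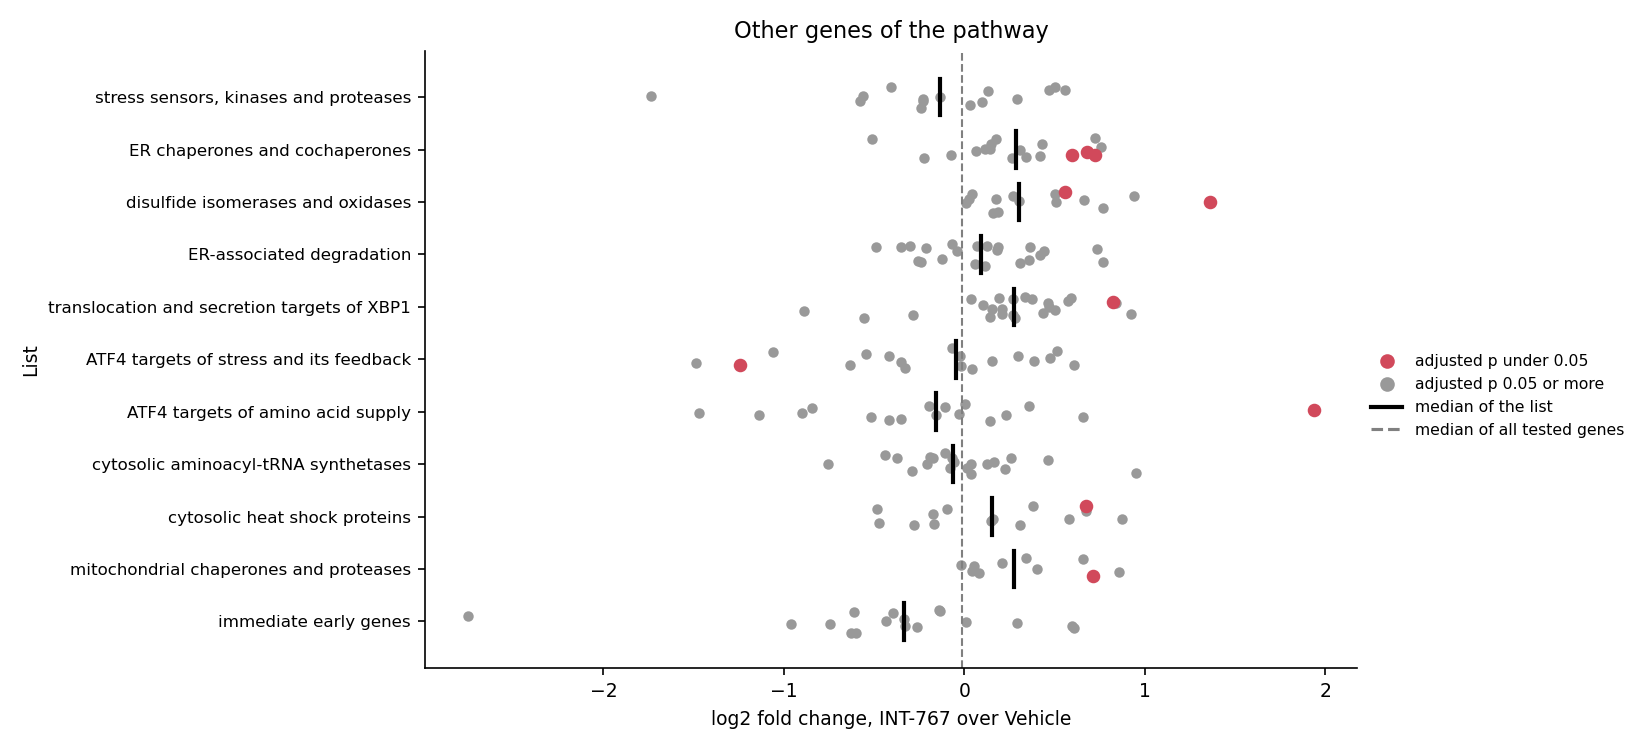
log2 fold change of INT-767 over Vehicle for each tested gene of 11 lists of the pathway and its neighbours, red where the adjusted *p* was under 0.05, with a black line at the median of each list and a dashed line at the median of all tested genes (-0.01). The medians of the chaperone, isomerase and secretion lists lie between 0.27 and 0.30, and those of the ATF4 lists between -0.15 and -0.05 (without Vehicle 3 the stress list was at 0.26, and without INT-767 1 it was at -0.29 and the amino acid list at -0.62). The chaperone median was 0.16 without INT-767 1, and the isomerase median 0.48 without Vehicle 3. With scaling by library size only the chaperone, isomerase and secretion medians were 0.09, 0.09 and 0.07.

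Markers of the cell types of the liver were read beside these values, bearing in mind that in bulk RNA fewer cells of a type and less RNA per cell cannot be told apart. The 10 hepatocyte markers summed to 71450 ± 7651 CPM (SD, n = 7) with vehicle and 105900 ± 16920 CPM (SD, n = 4) with INT-767, with *Alb* the most abundant. Of them 1 was called higher, *Ass1* (1.31, adjusted *p* = 0.00451), as it was in all 11 fits that left out 1 mouse. The median log2 fold change of the 10 hepatocyte markers was 0.55, and 8 were positive. By edgeR's unadjusted *p* under 0.05, 6 of them were higher and 0 lower, beside 17.4% higher among all tested genes. The 12 macrophage markers summed to 966 ± 139 and 707 ± 315 CPM, with *Lyz2* the most abundant and 3 called lower (*Csf1r*, *Cd68* and *Cd9*). *Csf1r* and *Cd68* were called in all 11 fits that left out 1 mouse and *Cd9* in 10. The macrophage sum was 587, 545, 519 and 1178 CPM in INT-767 1 to 4, and at most 1122 CPM with vehicle. The 12 stellate cell and myofibroblast markers summed to 1382 ± 396 and 976 ± 325 CPM (748, 803, 900 and 1454 CPM in INT-767 1 to 4), with *Dcn* the most abundant. Of them 3 were called lower (*Col1a1*, *Col1a2* and *Pdgfrb*). These 3 all lost their call without INT-767 2 (adjusted *p* = 0.0946, 0.0956 and 0.114), INT-767 4, Vehicle 5 or Vehicle 6. The 9 endothelial markers (292 ± 93.3 and 201 ± 43.2 CPM, *Stab1* the most abundant), the 7 cholangiocyte markers (1103 ± 494 and 808 ± 450 CPM, *Spp1*) and the 11 lymphocyte and neutrophil markers (51.8 ± 12.4 and 41.9 ± 21.5 CPM, *Ptprc*) held no called gene, although *Stab1* (-1.39, adjusted *p* = 0.0739) was called lower without Vehicle 1 (-1.54, adjusted *p* = 0.0259), by DESeq2 (0.0175) and in limma-voom weighted by sample quality (0.0303). *Stab2* (-0.97, adjusted *p* = 0.110) was called lower in the first and last of these fits (0.0352 and 0.0407). The cholangiocyte marker *Sox9* (-0.61, adjusted *p* = 0.0643) was called lower in the same 3 fits as *Stab1* (0.0425, 0.0232 and 0.0432) and with scaling by library size only (0.0416) or upper-quartile factors (0.0485), and *Krt19* (-0.63, adjusted *p* = 0.0844) by DESeq2 (0.0441). With the offset for GC content and length none of these was called, with *Stab1* at -0.84 (edgeR adjusted *p* = 0.0606) and *Stab2* at -0.43 (0.168). *Sox9* was at -0.38 (0.186) and *Krt19* at -0.65 (0.0623) in that fit. The part of the marker sums in the values of *Hspa5* and the other genes was not tested.

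Plasma cells and pancreatic acinar cells carry much of these chaperones, and most of their markers were low here. Of the 8 plasma cell markers, *Mzb1*, *Tnfrsf17* and *Pou2af1* had too few reads to be tested, with means of 0.97, 0.05 and 1.30 CPM with vehicle, and with INT-767 *Mzb1* was at 0.72, *Pou2af1* at 0.36 and *Tnfrsf17* at 0 CPM. *Jchain*, which joins the chains of secreted IgA and IgM, was read in every liver, at 15.2 ± 6.98 CPM (SD, n = 7) with vehicle and 17.4 ± 8.34 CPM (SD, n = 4) with INT-767 (log2 fold change 0.20, adjusted *p* = 0.707). The sum of the list, 282 ± 60.6 CPM with vehicle and 457 ± 111 CPM with INT-767, was mostly *Sdc1*, which hepatocytes also make and which was called higher (log2 fold change 0.75, adjusted *p* = 0.0487), a call kept in 2 of the 11 fits without 1 mouse. Of the 9 pancreatic markers, *Cpa1*, *Cpb1*, *Pnlip* and *Amy2a5* were at 0 in all 11 livers, which allows up to 3 counts or 0.175 to 0.422 CPM by counting error alone, and *Cela1* made up most of a sum of 18.7 ± 3.43 CPM with vehicle and 13.1 ± 4.88 CPM with INT-767. *Cela1* had a log2 fold change of -0.52 (adjusted *p* = 0.154) and was called lower with the offset (-0.70, adjusted *p* = 0.0225) and with scaling by library size only (-0.75, adjusted *p* = 0.0485).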

How the data were processed

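Liver mRNA of 7 vehicle and 4 INT-767 mice was analysed, grouped by the sample labels. According to the authors, libraries were stranded, the run had 75 cycles, and alignment was to GRCm38 (mm10) with Ensembl release 84. The submitters' processing notes name STAR 2.4.0, while the supplementary methods name another version. They deposited raw read counts per gene, not normalized. The counting program and its strand setting were not given in the sources used here, so that reads of a gene and an opposite-strand partner may not be told apart.

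From the counts, edgeR 4.0.16 in R 4.3.3 gave TMM factors, filterByExpr (minimum count 10, minimum total 15), and glmQLFit (robust) with glmQLFTest, treatment being the only term and Benjamini-Hochberg adjustment over 13880 genes at a threshold of 0.05. CPM were compared by an exact Mann-Whitney test over all 330 assignments. Correlations used log2 CPM with a prior count of 2. Coordinates, exon lengths and shared 75-base windows came from GENCODE M21 and promoters from RefSeq. The scripts were tested on simulated data. Alternatives were RLE, upper-quartile and library size scaling, 2 other filters, DESeq2 1.42.0, limma-voom 3.58.1 with and without sample weights, an offset for GC content and length (lowess, span 0.3), a replicate block, a threshold of 0.01 and leaving out each mouse. The genes, lists and motifs were chosen with earlier results of these data known. Named were the 10 genes, the sensors and *Creb3l3*, the called genes of each pathway list with the 4 smallest *p* (the 2 smallest *p* where none was called), the most abundant marker and markers at 0, and the 5 genes most like *Hspa5* and *Ddit3*. *Mzb1*, *Tnfrsf17*, *Pou2af1*, *Jchain* and *Sdc1* were named as defining markers. *Ass1*, *Csf1r*, *Cd68*, *Cd9*, *Col1a1*, *Col1a2* and *Pdgfrb* were named as called markers, and *Stab2*, *Sox9* and *Krt19* for their calls in alternatives. No library was a copy of another. The closest pair, Vehicle 5 and 6, had a median chi-square per gene of 0.71.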

Additional observations from a re-analysis of the deposited data

Results flagged for a closer look

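In 3 of the 20 gene and group combinations that were examined with Dixon's criterion, 1 mouse lay far from the rest of its group. Chance alone gives about 1 in 20 for independent, normally distributed values. *Atf3* was at 75.79 CPM in Vehicle 3, with the next vehicle liver at 15.65 CPM. *Ddit3* was at 16.84 CPM in the same liver, with the next at 10.48 CPM. *Xbp1* was at 208.7 CPM in Vehicle 1, with the next at 168.4 CPM. The INT-767 livers gave no such value in any of the 10 genes, but with 4 mice such a value is harder to detect than with 7.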

How the results depend on the processing

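Over the 11 fits that left out 1 mouse, the genes called higher ranged from 164 (without INT-767 2) to 1906 (without Vehicle 1) against 700 with all mice, those called lower from 110 to 1370 against 649, and the ER stress response genes called higher from 0 to 4. The 4 were *Hspa5*, *Hsp90b1*, *Dnajb9* and *Xbp1*, without Vehicle 1. With library size as the only scaling, 331 were higher and 1026 lower with 0 of the 10 genes (*Hspa5* adjusted *p* = 0.0664), with 24.4% of calls higher against 51.9%, and upper-quartile factors gave 36.5% and 0 of the 10 (*Hspa5* 0.0505). DESeq2 called 1443 higher and 1368 lower, limma-voom with sample weights 1626 and 1182 with 3 of the 10 (*Hspa5*, *Hsp90b1* and *Dnajb9*), the offset for GC content and length 1073 and 811, and the threshold of 0.01 gave 158 and 87 with 0 of the 10.

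The deviations of mice with the same number from their group means had correlations of -0.69, 0.22, 0.15 and -0.48. The labels name no pairing of mice. These correlations carry the differences between libraries given above and cannot show whether mice shared a batch. A replicate block gave 0 higher and 0 lower by edgeR (1347 at an unadjusted *p* under 0.05) and 0 of the 10 genes, with *Hspa5* at 0.86 (adjusted *p* = 0.462), and the block with the offset 0 and 0 (1681) and 0 of the 10, with *Hspa5* at 0.90 (adjusted *p* = 0.355).

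The sign turned for *Pdia4* with library size only (-0.056) and over the fits without 1 mouse (-0.0134 to 0.239), for *Atf3* with DESeq2 (0.22) and without 1 mouse (-0.83 to 0.23), for *Trib3* with sample weights (0.0851) and without 1 mouse (-0.431 to 0.0487), and for *Ddit3* without 1 mouse (-0.540 to 0.0782). *Hspa5* stayed positive in all 23 alternatives (0.71 to 1.10), as did *Hsp90b1*, *Herpud1*, *Dnajb9*, *Xbp1* and *Atf4*. The causes were not tested. With 4 treated mice and genes as low as *Ddit3* (58 to 243 counts), differences smaller than their intervals were not detectable here.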

Other observations

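Some genes next to the ER stress response genes were singled out after their values were seen, and are given as values only. The treated livers INT-767 1 and INT-767 4 had almost the same *Hspa5* (1035 and 1056 CPM) and differed in other genes of ER folding. The lectin chaperone *Calr* was at 986 CPM in INT-767 1 and 278 CPM in INT-767 4, outside the vehicle range of 384 to 726 CPM on both sides, and *Pdia6*, an isomerase, was at 268 and 58.5 CPM, against 101 to 165 CPM with vehicle. *Sel1l*, the scaffold of a degradation complex, was at 191 and 50.1 CPM, against 65.2 to 158 CPM with vehicle. The log2 fold changes of these genes were 0.07, 0.16 and -0.21 (edgeR adjusted *p* = 0.888, 0.723 and 0.675), so that the means did not show the spread. On the first principal component INT-767 1 was at -0.01 and INT-767 4 at 0.77, and Vehicle 1 and 7, which lay on the side of INT-767 4, were the lowest vehicle livers in *Sel1l* (65.2 and 75.5 CPM). The part of this difference between libraries was not tested.

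In Vehicle 3, the liver with the highest *Atf3*, *Gdf15*, a secreted stress hormone, was at 121 CPM against at most 12.02 CPM in the other livers, and *Ppp1r15a*, which encodes GADD34, the phosphatase subunit that ends the translation block, was at 48.4 CPM against at most 13.6 CPM. *Jun* was at 313 CPM against at most 82.8 CPM. *Chac1*, another ATF4 and CHOP target, was at 15.7 CPM against at most 11.5 CPM.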
